A study of Mus musculus with 24 samples.

Results

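The transcripts of Wnt ligands, Wnt receptors and the genes that make a Wnt ready for secretion were followed in mouse embryonic stem cells (mESCs) on soft and stiff substrates, after removal of either inhibitor of the 2i medium. The members were all genes of both count tables that are named *Wnt* or *Fzd* followed by a number, together with *Lrp5*, *Lrp6*, *Ror1*, *Ror2*, *Ryk*, *Porcn* and *Wls*. This gave 36 genes, all found in both tables, out of 35022 genes listed for PD03 removal and 48709 for CHIRON removal. There were 19 ligands, 10 Frizzled receptors, 2 co-receptors, 3 alternative receptors and 2 genes of ligand secretion.

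All libraries came from wild-type E14 mESCs, 1 cell line with a 129 background, on fibronectin-coated StemBond hydrogels. The cells spent 12 h on soft or stiff gels in 2i + LIF, which held 1 µM PD03 (an inhibitor of MEK, upstream of ERK) and 3 µM CHIRON (an inhibitor of GSK3), so every control at 0 h carries both inhibitors. PD03 was then withdrawn, leaving CHIRON + LIF, or CHIRON was withdrawn, leaving PD03 + LIF, and RNA was collected at 2 h and 12 h. Each of the 12 groups of removal, substrate and time had 2 replicate libraries, except that 1 library of CHIRON removal on stiff substrates at 2 h was left out for its low total count, so 23 of 24 libraries were used. The labels do not say whether replicates were separate cultures, so p-values measure the spread between these libraries, which may be technical.

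The libraries of PD03 removal held 16222196 to 26442153 counts each, and those of CHIRON removal 19393787 to 31111260. Levels are given as normalised CPM, protein-coding counts scaled to a common library size, and levels of different genes are compared only after division by transcript length (TPM). The cells carried their label, since the summed level of the 8 pluripotency markers lay between 5767 and 7385 CPM in every library, whereas the 6 fibroblast markers together reached at most 11.1 CPM.

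A Wnt protein is joined to a lipid by the acyltransferase encoded by *Porcn* and carried to the cell surface by the sorting receptor encoded by *Wls*. Outside the cell it binds a Frizzled receptor together with Lrp5 or Lrp6, which keeps GSK3 from marking β-catenin for destruction and lets β-catenin act with TCF/LEF factors on target genes. Ror1, Ror2 and Ryk receive Wnt5-type and related ligands, largely without β-catenin. CHIRON acts below the receptors, on GSK3 itself, and so mimics the end of this chain in mESCs, where β-catenin relieves the repressor Tcf7l1 and helps to keep the naïve state.

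In 2i + LIF at 0 h a few receptor genes stood far above all ligand genes, while several Frizzled genes lay below *Wnt5b*, the highest ligand gene (TPM, mean over the 4 libraries of both substrates in an experiment). *Fzd5* had 147 ± 3.80 TPM in PD03 removal and 154 ± 5.87 in CHIRON removal (SD, n = 4), the highest level of the 36 genes in both experiments. *Fzd10* followed with 137 ± 2.23 and 65.7 ± 2.63 TPM. *Fzd7* had 23.0 ± 1.79 and 35.2 ± 3.75 TPM, and together these 3 genes made up 90.8% and 92.3% of all Frizzled TPM. The other 7 Frizzled genes lay between 0.887 and 8.24 TPM in PD03 removal and between 0.426 and 7.01 TPM in CHIRON removal.

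Each of the other receptor roles had an abundant member. The co-receptor genes had 31.7 ± 1.36 and 32.7 ± 3.64 TPM for *Lrp6*, and 17.5 ± 0.993 and 30.6 ± 0.784 TPM for *Lrp5* (SD, n = 4). Of the alternative receptors, *Ryk*, an atypical kinase-like receptor, had 75.7 ± 0.908 and 42.2 ± 4.73 TPM, and *Ror2*, a receptor tyrosine kinase-like protein that binds Wnt5a, had 37.9 ± 1.49 and 49.0 ± 2.69 TPM. *Ror1* reached only 0.789 ± 0.299 and 0.246 ± 0.0847 TPM. *Porcn* had 55.3 ± 1.78 and 25.8 ± 1.92 TPM, against 4.91 ± 0.513 and 3.37 ± 0.260 TPM for *Wls*. Among the ligands *Wnt5b*, which signals mostly without β-catenin, was the highest in both experiments, with 16.1 ± 1.67 and 3.67 ± 0.795 TPM. *Wnt8a* came next in PD03 removal with 5.27 ± 0.691 TPM, whereas in CHIRON removal *Wnt4* (1.58 ± 0.257 TPM) and *Wnt8a* (1.56 ± 0.614 TPM) lay within the spread of each other.

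**Figure D1:**
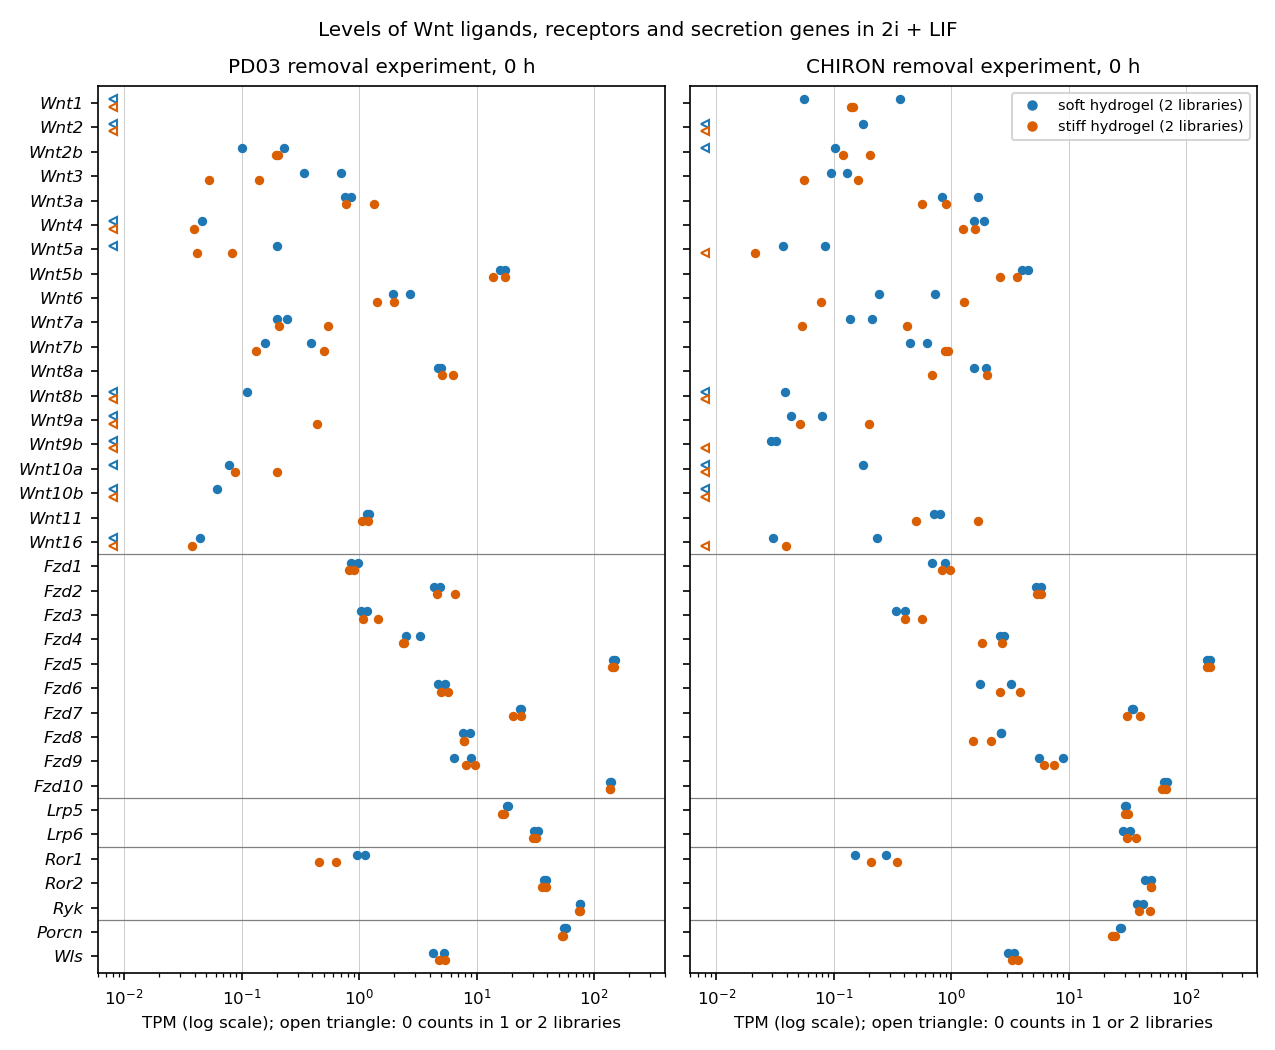
TPM (log scale) of the 36 genes at 0 h, in 2i + LIF, for both experiments. Each point is 1 library on soft (blue) or stiff (orange) substrates, open triangles mark libraries with 0 counts, and lines divide ligands, Frizzled genes, co-receptors, alternative receptors and secretion genes. *Fzd5* and *Fzd10* sit at the right edge, and most ligands lie below 1 TPM.

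Most ligand genes were barely counted. Of the 36 genes, 24 passed the filter on low counts in PD03 removal and 27 in CHIRON removal, and every gene below it was a ligand. In PD03 removal *Wnt2* had 0 counts in all 12 libraries, which allows at most 3 counts in each, that is up to 0.251 CPM. *Wnt1*, *Wnt4*, *Wnt8b*, *Wnt9b*, *Wnt10a*, *Wnt10b* and *Wnt16* had at most 4 counts in any library, *Wnt2b* and *Wnt5a* at most 8, *Wnt9a* at most 9 and *Wnt3* at most 11. In CHIRON removal *Wnt2*, *Wnt10a* and *Wnt10b* had at most 3 counts in any library, *Wnt3* at most 5, *Wnt1* and *Wnt9b* at most 6, *Wnt5a* and *Wnt8b* at most 7, and *Wnt2b* at most 8. *Wnt4*, *Wnt9a* and *Wnt16* passed the filter in CHIRON removal alone, with 19 to 55, 1 to 13 and 0 to 10 counts. The filter was laxer there, as it asked for as many libraries as the smallest group held. That was 1 library in CHIRON removal and 2 in PD03 removal, so the numbers of tested members are not on the same footing. *Wnt3*, a β-catenin ligand needed for the primitive streak, was tested in neither experiment.

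Removal of PD03 was examined first, as it releases ERK while GSK3 stays inhibited. At 12 h the receptor gene *Fzd7*, the acyltransferase gene *Porcn*, the main receptor gene *Fzd5* and the ligand genes *Wnt5b* and *Wnt8a* had risen on both substrates, and the carrier gene *Wls* had fallen on both. On soft substrates 6 of the 24 tested members rose and 2 fell, where 14.1% of all 13421 tested genes rose and 15.3% fell. On stiff substrates 6 rose and 3 fell, where 18.5% of all tested genes rose and 19.9% fell (rose and fell mean throughout an adjusted p under 0.05 from the quasi-likelihood test of edgeR, adjusted over all tested genes by Benjamini and Hochberg). The median log2 fold change of the tested members was 0.19 on soft and 0.041 on stiff substrates, against −0.0014 over all tested genes on both. In DESeq2 5 members passed on soft substrates, without *Fzd10*, *Wnt5b* and *Wnt8a*. The calls over all tested genes there also dropped, from 3946 in edgeR to 2936 in DESeq2.

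*Fzd7*, which encodes a receptor for several β-catenin ligands in mESCs, had the largest change among the abundant genes. On soft substrates its libraries held 32.2 and 32.1 CPM at 0 h, 39.5 and 36.7 at 2 h, then 62.8 and 62.6 at 12 h. The stiff libraries held 27.7 and 32.5 CPM at 0 h, 40.0 and 38.3 at 2 h, then 77.01 and 72.4 at 12 h. All libraries at 12 h lay above all libraries at 0 h and 2 h on either substrate. The log2 fold change at 12 h was 0.96 on soft (standard error 0.077, adjusted p = 1.2e-10, edgeR) and 1.31 on stiff substrates (standard error 0.077, adjusted p = 7.1e-14, edgeR). At 2 h it was 0.24 on soft (adjusted p = 0.16, edgeR), which did not pass, and 0.37 on stiff substrates (standard error 0.081, adjusted p = 0.0058, edgeR), a call lost when replicate 1 of stiff at 0 h (adjusted p = 0.18) or at 2 h (adjusted p = 0.080) was left out.

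*Fzd5* moved little for its high level. Its libraries on soft substrates held 308 and 303 CPM at 0 h, 352 and 337 at 2 h, then 366 and 381 at 12 h. Those on stiff substrates held 296 and 308 CPM at 0 h, 336 and 357 at 2 h, then 369 and 351 at 12 h. No library after removal fell within the range at 0 h. On the log2 scale the change at 12 h was 0.29 on soft (standard error 0.047, adjusted p = 2.0e-05, edgeR) and 0.25 on stiff substrates (standard error 0.047, adjusted p = 7.7e-05, edgeR). At 2 h it was 0.17 on soft (adjusted p = 0.048) and 0.20 on stiff substrates (adjusted p = 0.012, edgeR), but the former was lost when any 1 of its 4 libraries was left out (adjusted p from 0.095 to 0.36) and the latter without replicate 1 at 0 h or replicate 2 at 2 h (adjusted p = 0.19 for each). A gene model of the opposite strand (*Gm38058*) shares 17.8% of the exon bases of *Fzd5*, and as no source used here gives the strand option of featureCounts, reads of the pair cannot be told apart there.

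*Fzd10* showed another course, a fall at 2 h and a return by 12 h. On soft substrates it went from 129.8 and 137 CPM at 0 h to 89.0 and 94.3 at 2 h, then 143 and 149.8 at 12 h. On stiff substrates it went from 133 and 133 CPM at 0 h to 85.3 and 80.1 at 2 h, then 139 and 132 at 12 h. All 4 libraries at 2 h lay below every library of the other times. The log2 fold change at 2 h was −0.54 on soft (standard error 0.055, adjusted p = 1.2e-07, edgeR) and −0.68 on stiff substrates (standard error 0.055, adjusted p = 6.0e-10, edgeR). Against 0 h the level at 12 h differed by 0.14 on soft (adjusted p = 0.046, edgeR) and on stiff substrates by 0.031 (adjusted p = 0.69, edgeR), and the former call was lost without replicate 1 at 0 h (adjusted p = 0.29), replicate 1 at 12 h (0.055) or replicate 2 at 12 h (0.27).

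At 2 h, then, few members had moved. On soft substrates 2 rose (*Fzd5* and *Porcn*) and 1 fell (*Fzd10*), where 1.31% of all tested genes rose and 0.648% fell. On stiff substrates 3 rose (*Fzd5*, *Fzd7* and *Porcn*) and 2 fell (*Fzd10* and *Wnt8a*), where 1.83% rose and 0.894% fell. The fall of *Fzd10* held on both substrates under every alternative that was run. The number on stiff substrates was 1 without replicate 1 at 0 h, 3 without replicate 2 at 0 h, 2 without replicate 1 at 2 h and 3 without replicate 2 at 2 h, and that on soft substrates was 1 without replicate 1 at 2 h.

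The remaining Frizzled genes were low. *Fzd8* had 15.5 and 13.7 CPM at 0 h against 13.5 and 11.5 at 12 h on soft substrates, and 14.0 and 14.0 at 0 h against 11.3 and 9.72 at 12 h on stiff substrates. The fall on stiff substrates was −0.41 on the log2 scale (standard error 0.14, adjusted p = 0.018, edgeR) and was lost without replicate 1 at 0 h (adjusted p = 0.057), replicate 2 at 0 h (0.070) or replicate 2 at 12 h (0.17). *Fzd1* (0.784 to 2.01 CPM over the 12 libraries), *Fzd2* (4.66 to 8.03), *Fzd3* (3.90 to 5.54), *Fzd4* (3.56 to 7.90), *Fzd6* (6.11 to 8.74) and *Fzd9* (4.31 to 6.64) did not pass in any comparison of this experiment.

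The co-receptor genes kept within narrow limits. *Lrp6* ranged from 120 to 143 CPM over the 12 libraries and *Lrp5* from 42.6 to 56.8. Their log2 fold changes at 12 h had 95% intervals from −0.16 to 0.080 (soft) and −0.086 to 0.16 (stiff) for *Lrp6*, and from −0.14 to 0.16 and −0.11 to 0.20 for *Lrp5*. Among the alternative receptors, *Ryk* had 102 and 103 CPM at 0 h against 88.9 and 89.8 at 12 h on soft substrates, a fall of −0.20 on the log2 scale (standard error 0.055, adjusted p = 0.0064, edgeR). That call was lost without replicate 2 at 0 h (adjusted p = 0.053) or replicate 1 at 12 h (0.051). On stiff substrates *Ryk* had 101 and 104 CPM at 0 h against 97.8 and 93.5 at 12 h (log2 fold change −0.10, adjusted p = 0.15, edgeR). *Ror2* (40.3 to 57.8 CPM) and *Ror1* (0.720 to 1.90 CPM) did not pass in any comparison of this experiment.

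Of the secretion genes, *Porcn* and *Wls* went in opposite directions. *Porcn* had 49.5 and 51.7 CPM at 0 h, 66.8 and 62.6 at 2 h, then 77.2 and 78.6 at 12 h on soft substrates. On stiff substrates it had 48.1 and 48.9 CPM at 0 h, 60.4 and 56.6 at 2 h, then 80.8 and 81.9 at 12 h. The groups of the 3 times did not overlap on either substrate. Its log2 fold change at 2 h was 0.36 on soft (standard error 0.066, adjusted p = 0.0012, edgeR) and 0.27 on stiff substrates (standard error 0.065, adjusted p = 0.015, edgeR), and at 12 h 0.62 (standard error 0.064, adjusted p = 1.2e-08, edgeR) and 0.74 (standard error 0.064, adjusted p = 2.1e-10, edgeR). Without replicate 1 at 2 h the call at 2 h was lost on soft (adjusted p = 0.061) and on stiff substrates (0.20), where it was also lost without replicate 1 (0.13) or replicate 2 (0.10) at 0 h.

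*Wls* had 13.6 and 11.2 CPM at 0 h, 12.3 and 10.1 at 2 h, then 8.73 and 5.53 at 12 h on soft substrates, and 12.6 and 14.2, 11.5 and 11.9, and 5.97 and 6.35 on stiff substrates. All libraries at 12 h were below those of the earlier times. On the log2 scale the change at 12 h was −0.81 on soft (standard error 0.17, adjusted p = 0.00044, edgeR) and −1.13 on stiff substrates (standard error 0.17, adjusted p = 6.3e-06, edgeR). The replicates on soft substrates at 12 h were apart, and without replicate 2 the change there was −0.51 (adjusted p = 0.043, edgeR). At 2 h it did not pass on either substrate.

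The ligand genes that could be tested were *Wnt3a*, *Wnt5b*, *Wnt6*, *Wnt7a*, *Wnt7b*, *Wnt8a* and *Wnt11*. *Wnt5b* had 12.5 and 13.8 CPM at 0 h, 11.8 and 13.8 at 2 h, then 17.5 and 16.1 at 12 h on soft substrates, and 13.8 and 11.0, 10.9 and 10.8, and 17.0 and 17.4 on stiff substrates. The 12 h libraries lay above all others, by a log2 fold change against 0 h of 0.36 on soft (standard error 0.13, adjusted p = 0.033, edgeR) and 0.48 on stiff substrates (standard error 0.13, adjusted p = 0.0035, edgeR). The call on soft substrates was lost without replicate 1 at 0 h (adjusted p = 0.20), replicate 1 at 12 h (0.18) or replicate 2 at 12 h (0.055), and the call on stiff substrates without replicate 2 at 0 h (log2 fold change 0.31, adjusted p = 0.12).

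*Wnt8a*, a ligand of the β-catenin route in the early embryo, had 2.59 and 2.47 CPM at 0 h, 2.56 and 2.07 at 2 h, then 4.54 and 3.51 at 12 h on soft substrates. On stiff substrates it had 2.66 and 3.29 CPM at 0 h, 1.43 and 1.51 at 2 h, then 5.47 and 5.19 at 12 h. The log2 fold change at 12 h was 0.66 on soft (standard error 0.24, adjusted p = 0.034, edgeR) and 0.83 on stiff substrates (standard error 0.22, adjusted p = 0.0039, edgeR), and at 2 h −1.03 on stiff substrates (standard error 0.28, adjusted p = 0.034, edgeR). The first of these was lost without replicate 1 (adjusted p = 0.098) or replicate 2 (0.13) at 0 h or replicate 1 at 12 h (0.27), and the last without any 1 of its 4 libraries (adjusted p from 0.057 to 0.31).

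*Wnt6* and *Wnt11* rest on few counts. *Wnt6* had 20 and 19 counts at 0 h against 49 and 32 at 12 h on stiff substrates, a log2 change of 1.49 (with standard error 0.35, adjusted p = 0.0012, edgeR), and 22 and 28 counts at 0 h against 32 and 19 at 12 h on soft substrates (log2 fold change 0.18, adjusted p = 0.76, edgeR). *Wnt11*, a ligand of the β-catenin-independent route, had 23 and 27 counts at 0 h against 6 and 7 at 12 h on stiff substrates. The log2 change was −1.47 (standard error 0.49, adjusted p = 0.017, edgeR), lost without replicate 1 at 0 h (adjusted p = 0.065), replicate 1 at 12 h (0.13) or replicate 2 at 12 h (0.051). On soft substrates *Wnt11* had 25 and 24 counts at 0 h against 5 and 15 at 12 h (log2 fold change −1.14, adjusted p = 0.052, edgeR). *Wnt3a* (3 to 26 counts), *Wnt7a* (1 to 11) and *Wnt7b* (1 to 18) did not pass in any comparison of this experiment.

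**Figure D2:**
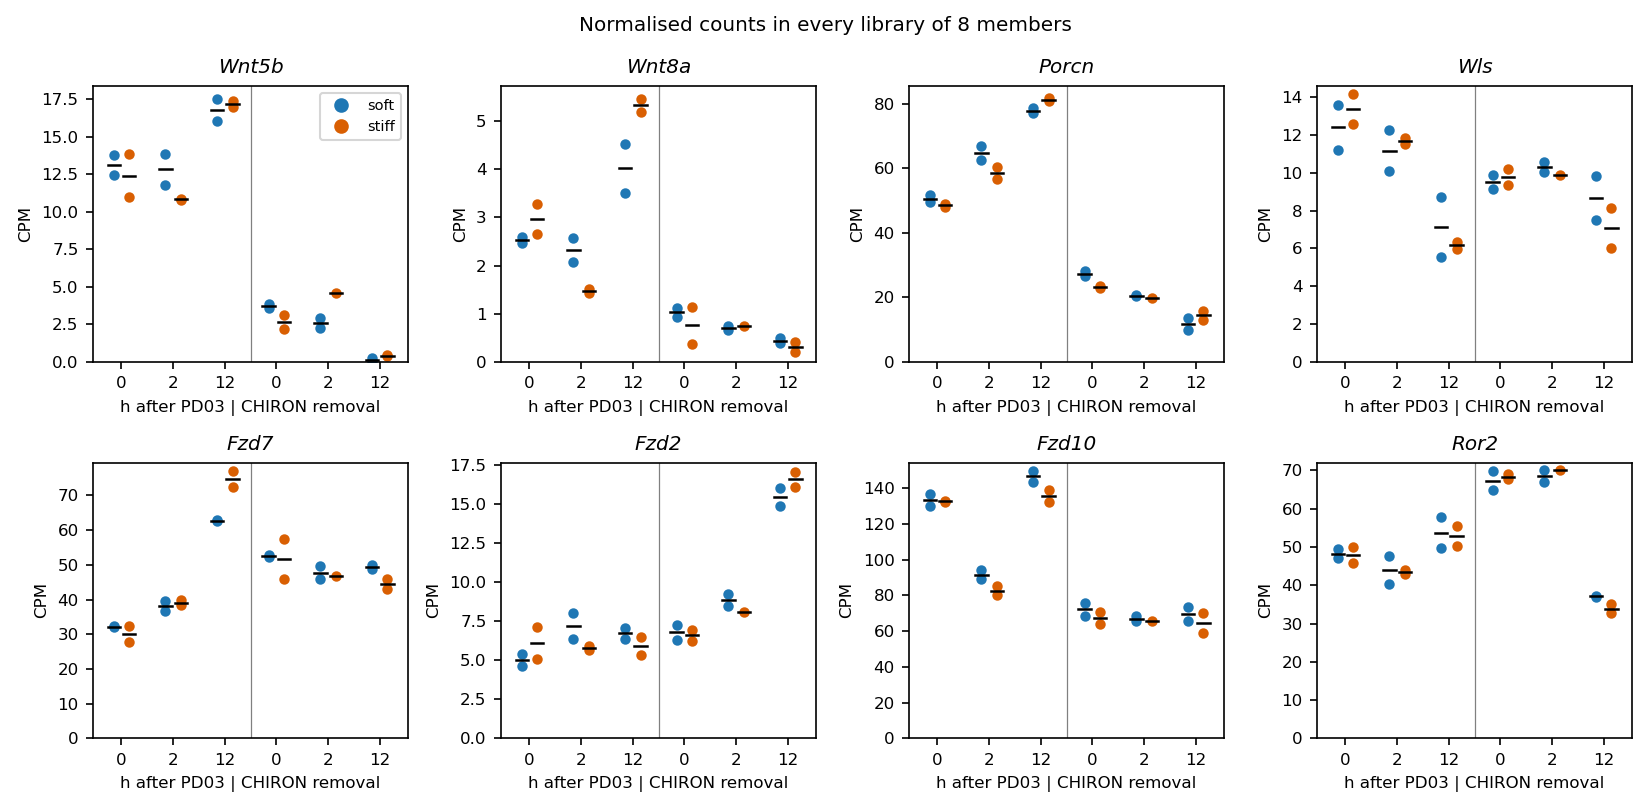
CPM (linear axis from 0) of 8 genes at 0 h, 2 h and 12 h after PD03 removal (left of each panel) and CHIRON removal (right), with 1 point for each library on soft (blue) or stiff (orange) substrates and a bar at each group mean. *Porcn* and *Wnt5b* stand higher at 12 h than at 0 h after PD03 removal and lower at 12 h than at 0 h after CHIRON removal, and *Fzd10* dips at 2 h after PD03 removal.

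Removal of CHIRON was examined next, as it frees GSK3 while MEK stays inhibited. At 12 h the ligand gene *Wnt5b*, the receptor gene *Ror2* and the acyltransferase gene *Porcn* had fallen on both substrates, and the receptor gene *Fzd2* had risen on both. On soft substrates 3 of the 27 tested members rose and 3 fell, where 9.18% of all 14615 tested genes rose and 8.63% fell. On stiff substrates 1 rose and 4 fell, where 8.46% rose and 8.34% fell. The median log2 fold change of the tested members was 0.010 on soft and −0.045 on stiff substrates, against −0.014 and −0.0085 over all tested genes. Genes that passed the filter through 1 group alone were kept for being high there, so these counts describe the members and no more. Replicates on soft substrates at 12 h differed more than those of any other group with both libraries used (chi-square of 58.5 for each degree of freedom).

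*Wnt5b* had the largest fall among the members on soft substrates and, after *Wnt11*, the next on stiff substrates. Its libraries on soft substrates held 3.59 and 3.86 CPM at 0 h, 2.25 and 2.95 at 2 h, then 0.225 and 0.0640 at 12 h, the last from 6 and 1 counts. On stiff substrates they held 3.15 and 2.17 CPM at 0 h, 4.58 in the 1 library at 2 h, then 0.410 and 0.426 at 12 h, from 8 counts in each. The groups at 0 h and 12 h were far from overlapping on both substrates. Summed over replicates and scaled to depth, the level at 12 h was 22.6-fold lower on soft (95% exact interval 10.7 to 57.0) and 6.36-fold lower on stiff substrates (3.73 to 11.6), intervals that cover counting error only. The fitted log2 fold change was −4.46 on soft (standard error 0.46, adjusted p = 1.9e-06, edgeR) and −2.65 on stiff substrates (standard error 0.41, adjusted p = 0.00017, edgeR), and both calls held in every alternative run.

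Another ligand gene, *Wnt11*, fell on stiff substrates, from 42 and 12 counts at 0 h to 2 and 6 at 12 h (log2 fold change −2.77, standard error 0.72, adjusted p = 0.012, edgeR). The replicates at 0 h were far apart, and the call was lost without replicate 1 at 0 h (log2 fold change −1.61, adjusted p = 0.24) or replicate 1 at 12 h (0.13). On soft substrates *Wnt11* went from 23 and 22 counts to 8 and 8 (log2 fold change −1.41, adjusted p = 0.16, edgeR). A pseudogene of the opposite strand (*Gm8398*) shares 8.80% of its exon bases. *Wnt8a* had 19 and 26 counts at 0 h against 13 and 6 at 12 h on soft substrates and 21 and 7 against 8 and 4 on stiff substrates, and did not pass (log2 fold changes −1.21 and −1.26, adjusted p = 0.18 and 0.22, edgeR).

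The promoters of *Wnt5b*, *Wnt11* and *Ror2* are shown for the core of the TCF/LEF site, CTTTGAT, the one motif searched. *Wnt5b* and *Ror2* fell on both substrates after CHIRON removal and *Wnt11* on stiff substrates, and *Porcn*, which fell on both, was not searched. The motif was searched on both strands of the 300 bases around each start (250 before, 50 after) in the RefSeq promoters of GRCm38.p6. It occurred in 3.73% of 32851 promoters, and in 2 of the 28 promoters held for 25 of the 36 genes. The 2 were start 3 of *Wnt5b* (its first base lay 71 bases before the start) and start 1 of *Wnt11* (on the opposite strand, 51 bases before the start), while neither the other starts of these genes nor that of *Ror2* held it. The 250 bases before each start are printed 5′ to 3′ on the gene's strand, with the match in capitals, from chr6:119449387-119449636 (minus strand), chr7:98834862-98835111 (plus strand) and chr13:53286125-53286374 (minus strand).
Wnt5b, start 3: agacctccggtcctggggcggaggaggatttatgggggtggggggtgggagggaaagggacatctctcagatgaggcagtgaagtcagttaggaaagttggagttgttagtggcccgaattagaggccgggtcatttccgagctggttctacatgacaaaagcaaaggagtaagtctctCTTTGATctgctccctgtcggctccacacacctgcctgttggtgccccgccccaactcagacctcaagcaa
Wnt11, start 1: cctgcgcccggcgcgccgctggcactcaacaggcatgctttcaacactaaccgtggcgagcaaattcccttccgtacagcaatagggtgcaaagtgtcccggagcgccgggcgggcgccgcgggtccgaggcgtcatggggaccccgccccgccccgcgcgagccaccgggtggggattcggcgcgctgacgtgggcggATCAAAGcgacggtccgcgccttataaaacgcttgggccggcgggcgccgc
Ror2: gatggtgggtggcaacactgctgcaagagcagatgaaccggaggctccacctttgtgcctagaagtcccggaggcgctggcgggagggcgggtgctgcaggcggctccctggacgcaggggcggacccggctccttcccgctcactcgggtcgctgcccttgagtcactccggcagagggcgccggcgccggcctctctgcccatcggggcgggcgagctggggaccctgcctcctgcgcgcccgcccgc
A match of 7 letters is a description of the sequence and not a bound site, and which start of *Wnt5b* or *Wnt11* was used cannot be read from counts per gene.

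*Ror2* fell by nearly the same amount on both substrates. It had 64.8 and 69.9 CPM at 0 h, 70.0 and 67.0 at 2 h, then 36.9 and 37.3 at 12 h on soft substrates, and 69.1 and 67.7 at 0 h, 70.2 in the 1 library at 2 h, then 32.8 and 35.0 at 12 h on stiff substrates. The libraries at 0 h and 2 h were alike and all lay above those at 12 h. On the log2 scale the change at 12 h was −0.86 on soft (standard error 0.085, adjusted p = 1.2e-06, edgeR) and −1.01 on stiff substrates (standard error 0.086, adjusted p = 2.2e-07, edgeR). The other alternative receptors did not pass, *Ryk* with 54.7 to 69.9 CPM over the 11 libraries and *Ror1* with 6 to 18 counts.

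*Porcn* had 28.1 and 26.5 CPM at 0 h, 20.3 and 20.7 at 2 h, then 9.85 and 13.6 at 12 h on soft substrates. On stiff substrates it had 23.0 and 23.6 CPM at 0 h, 19.8 at 2 h, then 15.9 and 13.1 at 12 h. The times did not overlap on either substrate. The log2 fold change at 12 h was −1.24 on soft (standard error 0.14, adjusted p = 5.2e-06, edgeR) and −0.68 on stiff substrates (standard error 0.14, adjusted p = 0.0020, edgeR), the latter lost without replicate 2 at 12 h (adjusted p = 0.054). *Wls* had 9.15 to 10.6 CPM at 0 h and 2 h over both substrates and 9.81, 7.49, 6.00 and 8.15 at 12 h, and did not pass (log2 fold changes −0.12 and −0.47, adjusted p = 0.70 and 0.083, edgeR).

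*Fzd2* was the only Frizzled gene called at 12 h. It had 7.28 and 6.29 CPM at 0 h, 8.46 and 9.22 at 2 h, then 14.9 and 16.0 at 12 h on soft substrates, and 6.94 and 6.25 at 0 h, 8.10 at 2 h, then 17.0 and 16.1 at 12 h on stiff substrates. Every library at 12 h lay above every earlier one. On the log2 scale the change was 1.18 on soft (standard error 0.14, adjusted p = 1.3e-05, edgeR) and 1.33 on stiff substrates (standard error 0.15, adjusted p = 4.4e-06, edgeR), and both calls held in every alternative run. *Fzd5* (314 to 389 CPM over the 11 libraries), *Fzd10* (59.2 to 75.8), *Fzd7* (43.1 to 57.5), *Fzd9* (4.33 to 7.36), *Fzd4* (3.86 to 7.57), *Fzd6* (2.90 to 8.71), *Fzd8* (2.98 to 6.81), *Fzd3* (0.853 to 2.33) and *Fzd1* (0.984 to 2.11) did not pass.

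*Wnt7b* and *Wnt9a* passed the test on soft substrates from few counts. *Wnt7b* had 15 and 23 counts at 0 h against 43 and 44 at 12 h on soft substrates (log2 fold change 1.29, standard error 0.38, adjusted p = 0.023, edgeR) and 26 and 27 against 44 and 47 on stiff substrates, where it did not pass. *Wnt9a* had 1 and 2 counts at 0 h against 9 and 13 at 12 h on soft substrates, a ratio of 7.52 (95% exact interval 2.26 to 39.2, counting error only), with an adjusted p of 0.048 in edgeR. It reached 10 counts in libraries at 12 h alone, so it passed the filter through the groups where it was high and its test carries no weight. Both calls were lost without replicate 1 at 0 h (adjusted p = 0.16 and 0.22), replicate 2 at 0 h (0.065 and 0.16) or replicate 2 at 12 h (0.20 and 0.25), and with the discarded library (0.28 and 0.26). That of *Wnt9a* was also lost with the replicate number as a block (0.065), with no filter on low counts (0.081) and with all genes (0.072). An antisense RNA (*AU022754*) shares 6.62% of the exon bases of *Wnt7b*. *Wnt3a* (9 to 44 counts), *Wnt4* (19 to 55), *Wnt6* (1 to 25), *Wnt7a* (0 to 17) and *Wnt16* (0 to 10) did not pass, and neither did *Lrp5* (94.1 to 103 CPM) or *Lrp6* (134 to 173 CPM).

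At 2 h after CHIRON removal none of the 27 tested members passed on soft substrates in edgeR or in DESeq2, where 0.226% of all tested genes did in edgeR. An unadjusted p under 0.05 in edgeR was found for 1328 of all 14615 tested genes and for 4 members. These were *Fzd6* (log2 fold change 0.77, adjusted p = 0.30), *Wnt7b* (1.19, adjusted p = 0.31), *Porcn* (−0.41, adjusted p = 0.32) and *Fzd2* (0.39, adjusted p = 0.46, all edgeR). With 1 library left, stiff substrates at 2 h had no test.

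**Figure D3:**
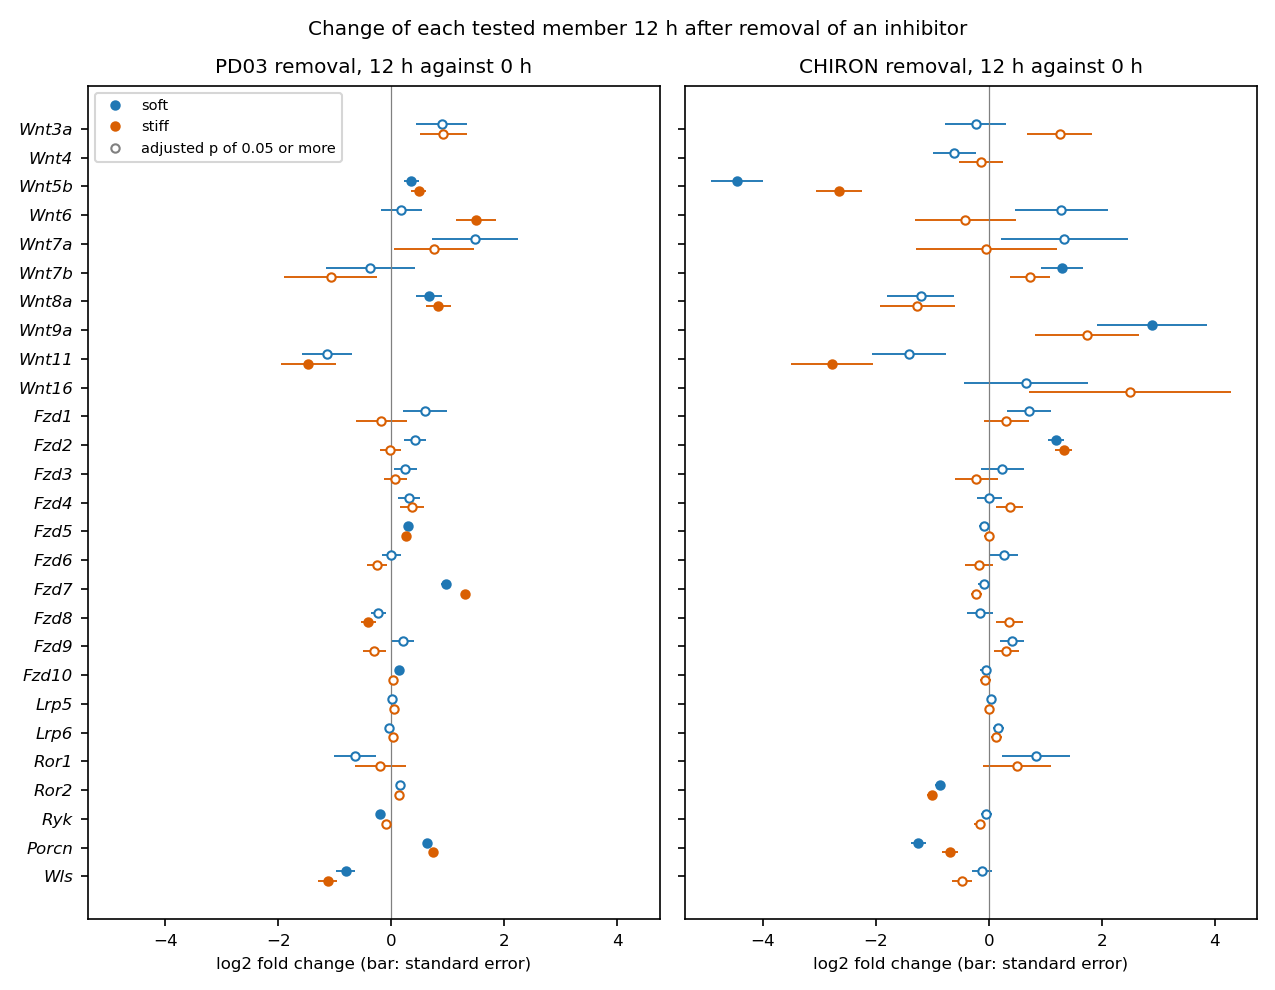
Log2 fold change of every tested member at 12 h against 0 h after PD03 removal (left) and CHIRON removal (right). Points are fitted values on soft (blue) and stiff (orange) substrates with standard errors, filled where the adjusted p was under 0.05. *Wnt5b* lies near −4.46 and −2.65 after CHIRON removal, and *Fzd7* at 0.96 (soft) and 1.31 (stiff) after PD03 removal.

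The effect of the substrate was tested at each time and as a difference in response, and no member passed in any of these 8 comparisons, in edgeR or in DESeq2. In PD03 removal 0.0298% of all tested genes differed between soft and stiff at 0 h, 0.134% at 2 h and 0.767% at 12 h, and the response differed in 0.00745% at 2 h and 0% at 12 h. Of the 24 tested members, 1, 4 and 3 had an unadjusted p under 0.05 at the 3 times, and 3 and 2 in the responses. Of all 13421 tested genes, 968, 1148 and 1294 did at the 3 times, and 605 and 900 in the responses. In CHIRON removal 0% of the tested genes differed at 0 h, at 12 h and in the response at 12 h, with 1, 1 and 2 of the 27 tested members at an unadjusted p under 0.05. Of all 14615 tested genes, 508, 471 and 415 had an unadjusted p under 0.05 in these comparisons.

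The 8 members with at least 20 CPM at 0 h in both experiments (*Fzd5*, *Fzd7*, *Fzd10*, *Lrp5*, *Lrp6*, *Ror2*, *Ryk* and *Porcn*) bound the size of a difference best. In PD03 removal their log2 differences, soft against stiff, lay between 0.00080 and 0.12 at 0 h, with 95% intervals within −0.16 to 0.27, and between −0.25 and 0.11 at 12 h, with intervals within −0.40 to 0.24. In CHIRON removal they lay between −0.10 and 0.23 at 0 h (intervals within −0.29 to 0.51) and between −0.33 and 0.15 at 12 h (intervals within −0.64 to 0.37). These intervals are not adjusted for the number of genes.

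*Fzd7* came nearest to a difference. At 12 h after PD03 removal its soft libraries (62.8 and 62.6 CPM) lay below its stiff libraries (77.01 and 72.4 CPM), a log2 difference of −0.25 (95% interval −0.40 to −0.11, adjusted p = 0.10, edgeR). In a model of only the groups compared, 1 member passed, lower on soft substrates. The response at 12 h, soft minus stiff, was −0.34 (95% interval −0.57 to −0.12, unadjusted p = 0.0038, adjusted p = 0.52 in edgeR). After CHIRON removal the corresponding response was −0.56 for *Porcn* (95% interval −0.98 to −0.15) and −1.81 for *Wnt5b* (−3.32 to −0.30), each at an adjusted p of 0.9999 in edgeR.

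**Figure D4:**
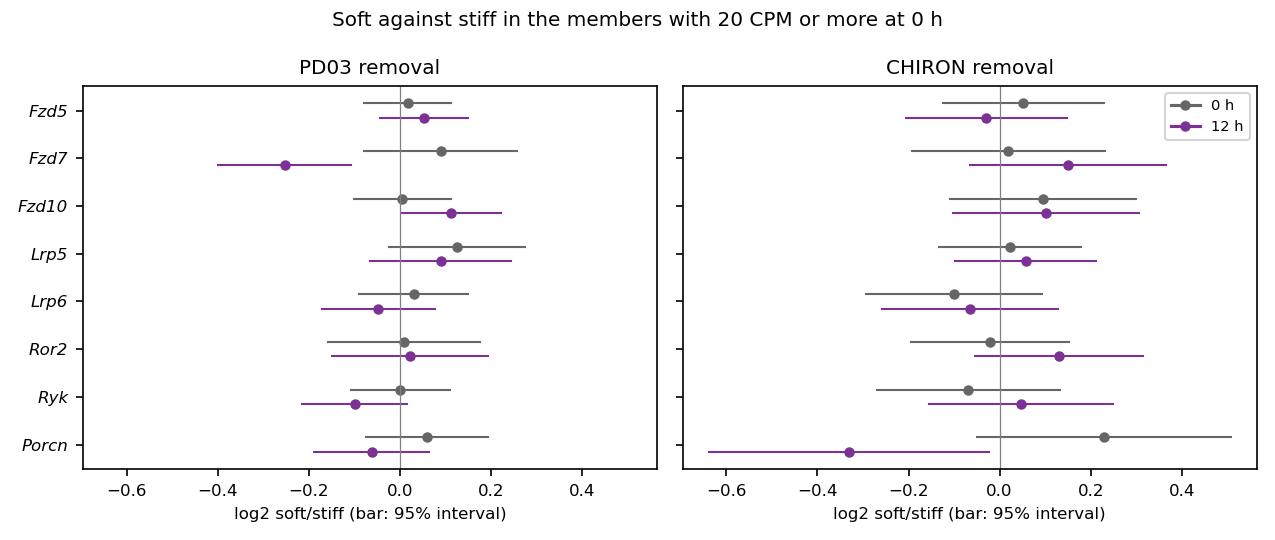
Log2 difference between soft and stiff substrates of the 8 members with at least 20 CPM at 0 h, with unadjusted 95% intervals, at 0 h (grey) and 12 h (purple) in PD03 removal (left) and CHIRON removal (right). Most intervals include 0, and those of *Fzd7* at 12 h after PD03 removal and *Porcn* at 12 h after CHIRON removal lie below it, and that of *Fzd10* at 12 h after PD03 removal starts just above it.

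The 12 h responses were then compared between the removals in 1 model of all 23 libraries, which tested 28 members among 14758 genes. The fitted relative spread between replicates was 0.0386 in PD03 removal, 0.0797 in CHIRON removal and 0.0605 in the joint model. As that model pooled the 2 experiments, it can understate the error of CHIRON removal, and its p-values may be too small. *Porcn*, *Wnt5b*, *Ror2*, *Fzd7* and *Wnt8a* had a lower response to CHIRON removal than to PD03 removal on both substrates, and *Fzd2* a higher one. On soft substrates 6 members were lower and 1 was higher, where 10.5% of all tested genes were lower and 10.5% higher, and on stiff substrates 5 were lower and 2 higher, where 12.4% were lower and 11.1% higher. The difference was −1.87 for *Porcn* on soft (standard error 0.14, adjusted p = 1.5e-10, edgeR) and −1.43 on stiff substrates (standard error 0.14, adjusted p = 2.0e-08, edgeR). For *Wnt5b* it was −4.80 (standard error 0.40, adjusted p = 8.7e-10, edgeR) and −3.13 (standard error 0.37, adjusted p = 2.9e-07, edgeR). These genes rose in 1 experiment and fell in the other.

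*Fzd7* differed by −1.04 on soft and −1.53 on stiff substrates (adjusted p = 7.3e-07 and 8.7e-10, edgeR), after a rise in PD03 removal alone. *Ror2* differed by −1.01 and −1.16 (adjusted p = 4.2e-07 and 4.7e-08, edgeR) and *Fzd2* by 0.76 and 1.34 (adjusted p = 0.022 and 0.00013, edgeR), after changes called in CHIRON removal alone. *Wnt8a* differed by −1.86 and −2.09 (adjusted p = 0.011 and 0.0096, edgeR), from changes of 0.66 and 0.83 in PD03 removal and of −1.21 and −1.26, which did not pass, in CHIRON removal. *Fzd5* differed by −0.37 on soft substrates (adjusted p = 0.0061), and *Fzd8* on stiff substrates by 0.77 (adjusted p = 0.034, edgeR). Of these, *Fzd2* on soft, *Wnt8a* on both and *Fzd8* on stiff substrates were lost when certain single libraries were left out, with adjusted p up to 0.12 for *Fzd2*, 0.055 (soft) and 0.31 (stiff) for *Wnt8a*, whose difference on stiff substrates was −1.11 without replicate 1 of CHIRON removal at 0 h, and 0.18 for *Fzd8*.

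The removals were separate experiments, so the inhibitor and the experiment cannot be told apart in this comparison. Their levels in the shared 0 h medium already differed, although each was normalised on its own. Over the 4 libraries at 0 h (SD, n = 4), *Wnt5b* had 12.8 ± 1.35 CPM in PD03 removal and 3.19 ± 0.740 in CHIRON removal, *Porcn* 49.6 ± 1.54 and 25.3 ± 2.43, and *Fzd10* 133 ± 2.84 and 69.9 ± 4.81. *Lrp5* had 51.0 ± 2.71 and 97.5 ± 1.55 CPM, and *Wnt4* had at most 1 count in each library at 0 h of the former and 31 to 55 in the latter. Their ranges did not overlap. The 6 trophoblast markers also differed between the experiments. Their summed level was 2.28 to 3.96 CPM in PD03 removal and 88.7 to 113.6 CPM in CHIRON removal. Most of the latter was *Tfap2a* (72.7 to 104.5 CPM), and *Gata3* had 6.07 to 24.3 CPM there. None of the 6 was at 0 in every library, although *Elf5*, *Gata3*, *Hand1* and *Plac1* had at most 10 counts in each library of PD03 removal, and their part in the differences between experiments was not tested.

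Marker genes also moved with time. The summed level of the 8 pluripotency markers lay between 7063 and 7205 CPM at 0 h and between 6104 and 6230 at 12 h after PD03 removal on soft substrates, and between 7123 and 7131 and between 5842 and 5846 on stiff substrates. Of the 8, 5 fell and 1 rose on each, where 15.3% (soft) and 19.9% (stiff) of all tested genes fell and 14.1% and 18.5% rose. The summed level of the 5 primitive streak markers lay between 21.1 and 24.4 CPM at 0 h and between 48.9 and 57.1 at 12 h after PD03 removal, and between 22.8 and 25.2 and between 13.7 and 16.4 after CHIRON removal, with *Mesp1* at 10 counts or fewer in every library. On each substrate after PD03 removal 2 of the 4 tested streak markers rose and 1 fell. After CHIRON removal 1 (soft) and 2 (stiff) fell and 0 rose, so that sum does not describe the whole list. There *T*, also counted below as a target of β-catenin, changed by −4.82 (soft) and −5.91 (stiff) on the log2 scale. It spanned 0.107 to 9.06 CPM over the 11 libraries of CHIRON removal. The 5 neuroectoderm markers together lay between 50.6 and 60.1 CPM at 0 h and at 80.8 CPM or more at 12 h after CHIRON removal, and between 62.6 and 79.0 and between 58.7 and 63.1 after PD03 removal. Their part in the changes of the members was not tested. In bulk RNA a change in the share of cells that express a gene and a change in its RNA per cell cannot be told apart.

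The other genes of the pathway were counted at 12 h beside the share over all tested genes. These lists were chosen with earlier results of these data known, so their counts are a description and not a test of enrichment. After PD03 removal 14.1% of these rose and 15.3% fell on soft and 18.5% and 19.9% on stiff substrates, and after CHIRON removal 9.18% and 8.63% on soft and 8.46% and 8.34% on stiff substrates. Of 12 genes chosen as direct targets of β-catenin, 10 (soft) and 9 (stiff) were lower and 0 higher 12 h after CHIRON removal, where 8.63% and 8.34% of all tested genes fell (median log2 fold changes −2.29 and −1.47). *Sp5*, *Cdx1* and *Axin2* changed by −6.09 and −5.80, −3.94 and −4.20, and −2.65 and −2.58 on soft and stiff substrates. After PD03 removal 8 (soft) and 7 (stiff) of the 12 were higher, and 0 (soft) and 1 (stiff) lower, among them *T*, *Myc* and *Cdx1* (1.38 and 1.57, 1.40 and 1.67, and 0.60 and 0.59). Of 8 feedback targets of ERK, 5 rose on each substrate after PD03 removal, among them *Spry4*, *Etv4* and *Dusp6*, and 4 (soft) and 3 (stiff) fell after CHIRON removal, among them *Spry2*, *Spry4* and *Etv4*.

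The counts of the secreted and membrane modulators were small. Of the 19 secreted modulators, 10 were tested in PD03 removal, where 1 rose and 2 fell on soft (14.1% and 15.3% of all tested genes) and 2 rose and 3 fell on stiff substrates (18.5% and 19.9%), with *Dkk4*, an inhibitor that blocks Lrp6, higher (1.97 and 2.39) and *Sfrp1* (−0.49 and −0.60) and *Notum* (−0.21 and −0.41) lower on both. In CHIRON removal 11 were tested, 5 (soft) and 4 (stiff) rose (9.18% and 8.46% of all tested genes), with *Sfrp1* (0.75 and 0.73), *Notum* (0.49 and 0.75) and *Sfrp5* (1.94 and 2.11) on both, and 1 fell on each, *Dkk1* (−1.71 and −1.74). *Notum* encodes an enzyme that takes off the lipid which *Porcn* puts on, and *Sfrp1* and *Sfrp5* encode decoys that bind Wnt proteins. Of the 13 membrane modulators, 10 were tested in PD03 removal and 12 in CHIRON removal. After PD03 removal 3 rose on each substrate (*Lgr4*, *Gpc4* and *Znrf3*; 14.1% and 18.5% of all tested genes) and 1 (soft) and 2 (stiff) fell, with *Apcdd1* on both. After CHIRON removal 1 rose (*Adgra2*) and 3 fell (*Rnf43*, *Gpc4* and *Znrf3*) on each (8.63% and 8.34% of all tested genes fell). *Rnf43* and *Znrf3* encode ligases that clear Frizzled receptors from the surface.

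Inside the cell 20 relay genes were tested. After PD03 removal 5 (soft) and 8 (stiff) of them rose, among them *Dvl3*, *Bcl9l* and *Dvl1*, and 3 fell on each, *Ctnnb1* (−0.18 and −0.24), *Btrc* and *Gsk3b*. Of all tested genes 14.1% (soft) and 18.5% (stiff) rose and 15.3% and 19.9% fell. After CHIRON removal 3 rose on each substrate, with *Tcf7l2* (0.70 and 0.75) and *Tcf7l1* (0.48 and 0.56) on both, and 0 (soft) and 1 (stiff) fell. After CHIRON removal 9.18% (soft) and 8.46% (stiff) of all tested genes rose and 8.63% and 8.34% fell. Of 12 planar polarity genes, 11 were tested, and their counts after PD03 removal lay near the shares of that removal. In PD03 removal 3 rose (*Scrib*, *Ptk7* and *Celsr3*) and 2 fell (*Prickle2* and *Prickle1*) on each substrate, and in CHIRON removal 3 (soft) and 1 (stiff) rose, with *Prickle2* on both, and 1 (soft) and 0 (stiff) fell.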

How the data were processed

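RNA of 24 libraries was depleted of ribosomal RNA and sequenced. Per the labels and the study's methods, the authors trimmed the reads, aligned them to mm10 with TopHat2 (2.1.0) and counted them per gene with featureCounts (1.5.0) on Ensembl release 86. The strand setting is not given in the sources used here. The values deposited by the authors are raw counts. In the PD03 removal table, 23 rows that name no gene and 12 columns of other samples were not used.

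Protein-coding genes were filtered (filterByExpr, minimum count 10), scaled by TMM and tested with edgeR's quasi-likelihood test (edgeR 4.0.16, R 4.3.3), with 1 model for each experiment and 1 for both, and Benjamini-Hochberg adjustment at 0.05. CPM are protein-coding counts scaled to depth after TMM. TPM used exon lengths from GENCODE M21. Alternatives were DESeq2 1.42.0, its size factors, no filter, all genes, only the groups compared, the replicate block, the discarded library and each library left out. The scripts were tested on simulated data. Replicates differed beyond counting error in all groups with both libraries used. The chi-square for each degree of freedom was 2.65 to 4.59 in PD03 removal and 5.87 to 58.5 in CHIRON removal. It was highest for CHIRON removal on soft substrates at 12 h (58.5) and next for stiff substrates at 0 h (23.2).

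The members, gene lists and motif were chosen with earlier results of these data known. Every member is named. Those called in an experiment are given by library, where the rule had planned this for all that passed the filter, and the others by range. Of the other lists, up to 3 genes in each direction are named, by the smallest adjusted p at 12 h on stiff substrates among those called on both. Proteins were planned for comparison but are not analysed here.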

Additional observations from a re-analysis of the deposited data

Results flagged for a closer look

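The discarded library of CHIRON removal (stiff substrates, 2 h, replicate 1) held 171333 counts in all, and in 11 genes the lower bound of its exact 95% Poisson interval lay above the highest library at 0 h. These were *Wnt4* with 123.6 CPM from 12 counts, *Wnt9b* with 82.4 CPM from 8, *Fzd1* and *Wls* with 72.1 CPM from 7 each, and *Fzd4* with 61.8 CPM from 6. *Wnt16* had 30.9 CPM from 3 counts. *Wnt3a*, *Wnt5a*, *Wnt7a*, *Wnt10a* and *Wnt11* had 20.6 CPM from 2 counts each. In the same library *Fzd10* had 0 counts and *Fzd5* had 2, that is 20.6 CPM. These CPM are unscaled and their intervals cover counting error only. In this library 1 count is 10.3 CPM, and 2 counts give a lower bound of 2.49 CPM. A gene whose highest library at 0 h lay below that bound was thus listed from 2 counts. The share of all genes that this rule would list was not computed.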

How the results depend on the processing

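Of 50 gene results past the threshold in edgeR, 28 held under every alternative run, 22 were lost under at least 1 and 0 changed direction. All 50 held with the size factors of DESeq2, 48 with no filter on low counts, 48 with all genes and 42 of the 49 with an adjusted p in DESeq2. The number of members called moved from 8 to 5 in DESeq2 for PD03 removal on soft substrates at 12 h. The calls over all tested genes went from 3946 to 2936 in the same step. On stiff substrates at 2 h after PD03 removal, the number of members moved from 5 to 2 with only the groups compared. With only the groups compared, 1 member differed between substrates 12 h after PD03 removal, and with no filter 1 member passed 2 h after CHIRON removal on soft substrates, where 0 did otherwise. With the discarded library, 3 in place of 5 passed after CHIRON removal on stiff substrates at 12 h (*Porcn* had an adjusted p of 0.064 and *Wnt11* of 0.24), and 4 in place of 7 differed between the removals on soft substrates (*Fzd5* had an adjusted p of 0.93). With it, 0 of 27 members passed at 2 h on stiff substrates, against 0 h or against soft. The cause was not tested.

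Leaving out 1 library gave 1 to 2 members for PD03 removal at 2 h on soft and 1 to 3 on stiff substrates, and 5 to 7 and 7 to 8 at 12 h. It gave 4 to 6 for CHIRON removal at 12 h on soft and 4 to 5 on stiff substrates, and 5 to 7 and 5 to 8 for the difference between removals. A lone library left in a group was assumed to vary like the other groups.

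No pairing of the samples by replicate number was seen, but correlations over all tested genes can miss a weak one. Deviations of same-numbered libraries correlated between −0.052 and 0.11 over 15 pairs of groups in PD03 removal and between −0.11 and 0.071 over 10 in CHIRON removal. With the replicate number as a block, the members called were 3 and 8 on soft and 5 and 9 on stiff substrates at 2 h and 12 h after PD03 removal, 5 on each substrate 12 h after CHIRON removal, 7 on each between removals, and 0 elsewhere. *Wnt9a* was the 1 call lost (adjusted p = 0.065, edgeR), and the calls over all genes at 12 h went from 3946 to 4005 on soft and 5157 to 5144 on stiff substrates for PD03 removal, from 2603 to 2278 and 2456 to 2149 for CHIRON removal, and from 3093 to 2909 and 3467 to 3302 between removals. At 2 h after CHIRON removal on soft substrates they went from 33 to 21.

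Low counts limit the ligands most, as 12 of 19 in PD03 removal and 9 of 19 in CHIRON removal did not pass the filter, which was laxer in CHIRON removal.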
